A study of Mus musculus with 2 samples.

Results

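Genes of macrophages, antigen presentation and mast cells were examined in RNA-Seq counts from primary rib chondrocytes and primary dermal fibroblasts. The 35 genes were fixed by name from a list of myeloid, MHC class II and mast cell markers, and 34 of them were found among the 24421 rows of the table under the listed symbol. *Emr1*, the macrophage surface receptor of the adhesion family, was found under its current symbol *Adgre1*. The data comprised 2 libraries, 1 of each cell type. Chondrocytes came from rib cartilage of newborn mice, freed by collagenase after soft tissue had been digested away, and were used within 2 passages, and dermal fibroblasts came from collagenase-digested dorsal skin of newborn mice. Strain, genotype, number of animals and any sorting step were not given in the sources used here for these libraries. The counts summed to 18788599 in chondrocytes and 17563724 in dermal fibroblasts.

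Macrophages are phagocytes of the myeloid lineage that live in nearly every connective tissue, skin included. They depend on the receptor encoded by *Csf1r*, carry Fc receptors that signal through small adaptor proteins, and make the complement subcomponent C1q. Mast cells are granulated cells of skin and other barriers, and their granules hold the proteases encoded by *Cpa3*, *Cma1*, *Mcpt4* and *Tpsb2*. None of these genes is a defining gene of cartilage or of dermal fibroblasts. In bulk RNA, fewer cells of a type and less RNA per cell cannot be told apart.

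The libraries carried the markers of their labels. All 8 chondrocyte marker genes were more than 2-fold higher in the chondrocyte library, and 7 of 8 dermal fibroblast marker genes were more than 2-fold higher in the fibroblast library, the exception being *Lum* (3191 and 2881 counts). The libraries were scaled with edgeR TMM factors, which set the median log2 fold of all genes near 0, and levels are CPM, the counts scaled to a common library size, on that scale. Folds are given with their exact (Clopper-Pearson) 95% interval for counting error alone. With 1 library per cell type no test across genes was possible and no difference has a replicate check.

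Reads of the macrophage program were present in both libraries, and nearly every gene of it was higher in dermal fibroblasts. Of the 35 genes, 32 had at least 10 counts summed over both libraries and were compared. The level was higher in dermal fibroblasts for 30 of the 32, against 50% of all 14730 genes compared. The difference was over 2-fold for 11 of them (34.4%), against 16.2% of all genes, and 1 gene, *Pf4*, was more than 2-fold higher in the chondrocyte library, against 12% of all genes. The other 20 lay within 2-fold, as did 10581 of all 14730 genes. A stricter 4-fold threshold left 4 genes on the fibroblast side, against 6.75% of all genes, and none on the chondrocyte side, against 5.15%. The counting interval lay above equality for 22 of the 32 genes, against 35.4% of all genes, and lay wholly beyond 2-fold for 5 of them, against 10.5%. Only *Pf4* had an interval on the chondrocyte side of equality (34.5% of all genes) and of 2-fold (7% of all genes). The median log2 fold of the 32 genes was 0.66. Together the 35 genes took 240.2 CPM in chondrocytes and 431 CPM in dermal fibroblasts, a 1.79-fold difference (interval 1.73 to 1.86).

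The share over 2-fold was read against abundance, because genes with few reads pass a fold threshold more often. Among the 23 genes with 100 to 1000 summed counts, 5 (21.7%) were more than 2-fold higher in the fibroblast library, against 16.1% of all genes of that abundance. Among the 6 genes with 10 to 100 summed counts, 5 were, against 28.1% of all such genes. These 5, *Cd163*, *Cpa3*, *Mcpt4*, *Tpsb2* and *Cma1*, had 2 or 3 counts in chondrocytes. They passed the filter of 10 summed counts only through dermal fibroblasts, which set their fold over 2. They make up 5 of the 11 genes over 2-fold, so that share is raised by the filter. With at least 100 summed counts, 6 of 26 genes were over 2-fold on this side, against 13.3% of all such genes. In the range that holds most of the genes, the share over 2-fold was thus near the background, and the median log2 fold was 0.58 against 0.02.

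**Figure D1:**
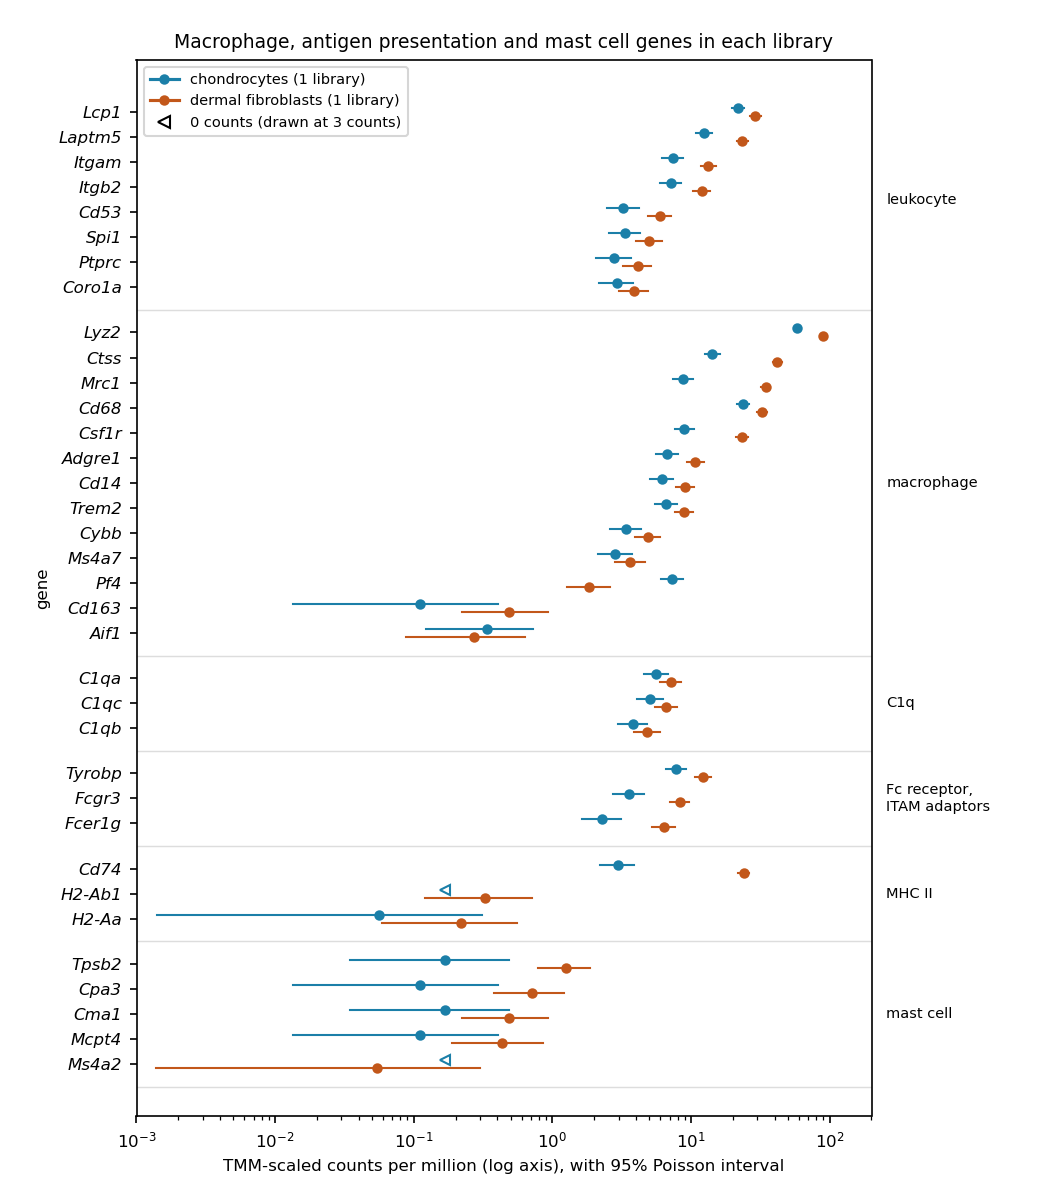
Level of each of the 35 genes in each library, as TMM-scaled CPM on a log axis with 95% Poisson intervals, grouped by role. In the macrophage group the dermal fibroblast point lies to the right of the chondrocyte point for each gene except *Pf4* and *Aif1*, and the mast cell genes lie below 1.5 CPM in both libraries.

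The genes common to leukocytes had similar folds. *Ptprc*, which encodes the leukocyte phosphatase CD45, had 50 reads in the chondrocyte library against 76 in the fibroblast library, and *Spi1*, which encodes a transcription factor required for the myeloid lineage, had 60 and 92. *Itgam* and *Itgb2*, the chains of the integrin Mac-1, had 133 and 245 counts and 128 and 219 counts. The count of *Itgam* per count of *Itgb2* was 1.04 in chondrocytes (interval 0.809 to 1.33) and 1.12 in dermal fibroblasts (interval 0.928 to 1.35), so the proportion of the chains did not differ beyond counting error. *Lcp1*, an actin-bundling protein of blood cells, had 393 and 536 counts, *Coro1a*, an actin regulator, had 52 and 71, and the tetraspanin gene *Cd53* had 58 and 110. *Laptm5*, a lysosomal membrane protein of leukocytes, had 221 and 431 counts and the fold closest to the threshold from below, at 1.90 (interval 1.61 to 2.24). All 8 genes were within 2-fold, as were 10581 of the 14730 genes compared. The folds ran from 1.33 (*Lcp1*) to 1.90 (*Laptm5*). The interval lay above 1 for 7 of the 8, against 35.4% of all genes, the exception being *Coro1a* (0.917 to 1.94).

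Within the macrophage group, most genes shared a modest fold and a few stood apart from it. *Lyz2*, the lysozyme of myeloid cells, was the most abundant member, with 1046 reads in the chondrocyte library against 1639 in the fibroblast library, a 1.53-fold difference (interval 1.41 to 1.65). *Cd68*, a lysosomal glycoprotein, had 423 and 600 counts and was 1.38-fold higher (interval 1.22 to 1.57). *Adgre1* had 121 and 198 counts and a fold of 1.59 (interval 1.26 to 2.01). Each of these general macrophage markers was higher in dermal fibroblasts by less than 2-fold. *Cd14*, a coreceptor for lipopolysaccharide, had 110 and 167 counts, and *Trem2*, a lipid-sensing receptor, had 119 and 164. *Cybb*, the catalytic subunit of the phagocyte NADPH oxidase, had 61 and 90 counts, and the tetraspan gene *Ms4a7* had 51 and 67. The folds of these 4 genes were between 1.28 and 1.48, and the interval of *Ms4a7* (0.875 to 1.88) held 1. *Aif1* had only 6 and 5 counts, too few to order the libraries (fold 0.811, interval 0.196 to 3.19).

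*Mrc1*, *Ctss* and *Csf1r* had larger folds than the other macrophage genes with at least 100 summed counts. *Mrc1* (chromosome 2 of GRCm38, 14229414 to 14332023) encodes the mannose receptor and had 157 reads in the chondrocyte library against 635 in the fibroblast library, a 3.94-fold difference (interval 3.30 to 4.72). *Ctss* (chromosome 3, 95526786 to 95556405) encodes cathepsin S, the protease that trims the invariant chain in antigen-presenting cells, and had 255 and 771 counts, a 2.94-fold difference (interval 2.55 to 3.41). *Csf1r* had 160 and 430 counts and was 2.62-fold higher (interval 2.18 to 3.16). The whole interval of each lay above 2-fold, against 10.5% of all genes. *Cd163*, the haemoglobin scavenger receptor of resident macrophages, had 2 and 9 counts, and its fold of 4.38 had an interval from 0.907 to 41.7 and was lost when counts under 10 were set to 10.

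*Pf4* went the other way. It encodes platelet factor 4, a chemokine stored in platelets that is also transcribed by some tissue macrophages, and lies on chromosome 5 from 90772435 to 90773383. *Pf4* had 131 reads in the chondrocyte library against 34 in the fibroblast library and was 3.96-fold higher in chondrocytes (interval 2.70 to 5.95). Of the 6 megakaryocyte and platelet genes listed beside it, *Ppbp*, a platelet chemokine, had 12 and 13 counts, *Itga2b*, a platelet integrin chain, had 63 and 55, and *Gp9* was at 0 in both libraries. *Gp1ba* and *Gp1bb*, platelet glycoprotein genes, had 13 and 4 counts and 38 and 69 counts. The summed platelet list stood at 8.70 and 7.71 CPM. The part of platelets or their precursors in the *Pf4* difference was not tested.

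The 3 chains of C1q had nearly the same small fold. *C1qa*, *C1qb* and *C1qc* lie side by side on chromosome 4 between 136880126 and 136898844, with gaps of 3.60 kb and 2.98 kb, and their products assemble in equal amounts into the recognition subunit of the classical complement pathway. *C1qa* had 100 reads in the chondrocyte library against 131 in the fibroblast library, *C1qb* had 68 and 89, and *C1qc* had 91 and 122. The folds were 1.28, 1.27 and 1.31, and the interval of each held 1, as for 4427 of the 14730 genes compared. Summed over the chains, the level was 1.29 times higher in the fibroblast library (interval 1.09 to 1.52). The count of *C1qb* per count of *C1qa* was 0.68 in chondrocytes (interval 0.492 to 0.935) and 0.679 in dermal fibroblasts (interval 0.513 to 0.896).

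Of the 3 Fc receptor and adaptor genes, 2 were more than 2-fold higher in the fibroblast library, against 16.2% of all genes. *Fcgr3*, a low-affinity receptor for IgG, had 64 and 152 counts, a 2.31-fold difference (interval 1.72 to 3.15). *Fcer1g*, the signalling gamma chain shared by several Fc receptors, had 41 and 117 counts, a 2.78-fold difference (interval 1.93 to 4.07). *Tyrobp*, the adaptor of *Trem2*, had 140 and 224 counts and a fold of 1.56 (interval 1.26 to 1.94). The lower bounds of *Fcgr3* and *Fcer1g* were under 2, so at this depth they could not be placed beyond 2-fold. *Fcgr3* and *Fcer1g* lie 164 kb apart on chromosome 1.

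**Figure D2:**
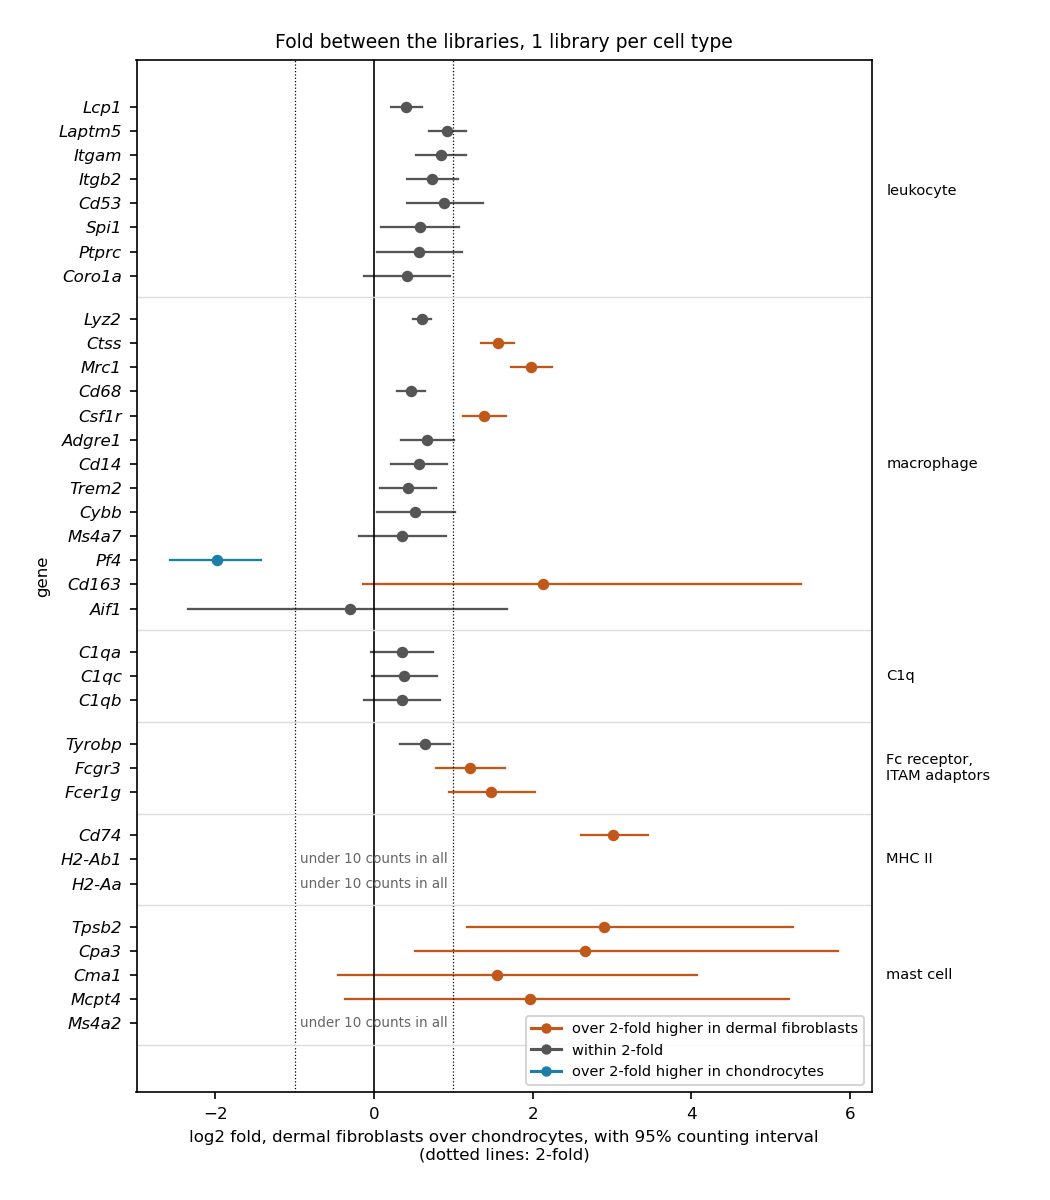
Log2 fold of dermal fibroblasts over chondrocytes for each gene, with its 95% counting interval and dotted lines at 2-fold. The genes within 2-fold sit between 0.35 and 0.93, apart from *Aif1*, while *Cd74*, *Mrc1*, *Ctss*, *Csf1r* and *Tpsb2* lie wholly to the right of 2-fold and *Pf4* wholly to the left.

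The MHC class II group was split between its members. *Cd74*, which encodes the invariant chain that escorts class II molecules, had 53 reads in the chondrocyte library against 441 in the fibroblast library. Its 8.10-fold difference (interval 6.08 to 10.99) was the largest of the 32 compared, although the intervals of *Tpsb2*, *Cpa3*, *Cma1*, *Mcpt4* and *Cd163*, which had few reads, overlapped it. The class II chains themselves were almost unread, with 1 and 4 counts for *H2-Aa* and 0 and 6 counts for *H2-Ab1*, and were not compared. In dermal fibroblasts the level of *Cd74* per kilobase of exon was 17.0, against 0.109 for *H2-Aa* and 0.198 for *H2-Ab1*. The other class II genes on the list did not follow *Cd74*. *H2-Eb1*, a class II beta chain, had 23 and 9 counts, *H2-DMb1*, a chain of the peptide-loading factor, had 22 and 5, *H2-DMa* had 197 and 140, and *Ciita*, the class II transactivator, had 4 and 2. *Cd80* had 55 and 43 counts and *H2-Oa* was at 0 in both libraries. Of the 6 compared other class II and costimulatory genes, 2 were more than 2-fold higher in the chondrocyte library, against 12% of all genes. On the fibroblast side 1 was, the costimulatory receptor gene *Cd40* (15 and 77 counts), against 16.2% of all genes.

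MHC class I genes, which most nucleated cells express, were on the same side as *Cd74*. All 7 were more than 2-fold higher in the fibroblast library with the whole interval beyond 2-fold, against 10.5% of all genes. Among them were *B2m* (2516 and 14800 counts, 5.73-fold), *H2-K1* (333 and 2386 counts), *Tapbp* (1130 and 2839 counts) and *Nlrc5*, the class I transactivator (51 and 499 counts, 9.53-fold). Whether the reads of *Cd74* came from myeloid cells or from other cells was not tested.

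Mast cell transcripts were at the edge of detection. *Tpsb2*, a tryptase, had 3 reads in the chondrocyte library against 23 in the fibroblast library, a 7.46-fold difference (interval 2.26 to 38.8). *Cpa3*, carboxypeptidase A3, had 2 and 13 counts and a fold of 6.33 (interval 1.43 to 57.8). The chymases *Cma1* (3 and 9 counts) and *Mcpt4* (2 and 8 counts) had intervals that held 1. All 4 were more than 2-fold higher in the fibroblast library, against 28.1% of all genes with 10 to 100 summed counts. With 2 or 3 counts in chondrocytes, each reached 10 summed counts only through dermal fibroblasts. A fold over 2 was thus set by that filter and is no separate result. Only the interval of *Tpsb2* lay wholly beyond 2-fold, against 10.5% of all genes. Only *Tpsb2* kept the call when counts under 10 were set to 10. *Ms4a2*, the beta chain of the IgE receptor, had 0 reads in the chondrocyte library against 1 in the fibroblast library, at or under the floor of 3 counts, which is 0.167 CPM in chondrocytes and 0.163 CPM in dermal fibroblasts. Summed, the 5 genes stood at 0.558 and 2.93 CPM, a 5.26-fold difference (interval 2.65 to 11.6). *Cma1* and *Mcpt4* belong to 1 protease cluster on chromosome 14 and lie 115 kb apart, and *Tpsb2* has a close paralog, *Tpsab1* (1 and 10 counts). Reads of such paralogs can be split or dropped in counting, so these values are uncertain beyond their counting error.

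Other mast cell genes gave a mixed picture. *Kit*, the stem cell factor receptor, which melanocytes also express, had 6 and 51 counts, and *Hdc*, which makes histamine, had 0 and 11. *Fcer1a*, the IgE-binding chain, was at 0 in both libraries, as were *Mcpt1*, *Mcpt2*, *Mcpt9*, *Mrgprb1*, *Mrgprb2* and *Gata1*. *Il1rl1*, the IL-33 receptor, had 146 and 2673 counts (17.8-fold), and *Mitf* had 150 and 599, whereas *Gata2* had 155 and 21. *Srgn* (25 and 20 counts) and *Slc18a2* (16 and 22 counts) were within 2-fold. Whether the reads of *Kit*, *Il1rl1* and *Mitf* came from mast cells or from other cells was not tested. Of the 9 genes compared in this list, 6 were more than 2-fold higher in the fibroblast library, against 16.2% of all genes. On the chondrocyte side 1 was, against 12% of all genes. *Hdc* and *Tpsab1*, with 0 and 1 counts in chondrocytes, passed the filter of 10 summed counts only through dermal fibroblasts. That filter set their fold over 2.

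The promoters of 5 members are shown because they stand for the different behaviours: *Mrc1* and *Ctss* for the genes with the larger folds, *C1qb* for those with a small fold, *Pf4* for the gene with the opposite direction and *Cpa3* for the mast cell genes. Each is the 250 bases before the transcription start in RefSeq on GRCm38.p6, 5′ to 3′ on the strand of the gene. The windows are chr2:14229164-14229413, plus strand, for *Mrc1*, chr3:95526536-95526785, plus strand, for *Ctss*, chr4:136886201-136886450, minus strand, for *C1qb*, chr5:90772185-90772434, plus strand, for *Pf4* and chr3:20242182-20242431, minus strand, for *Cpa3*. Capitals mark GAGGAA, a core that ETS factors such as the product of *Spi1* bind, and AGATAA, a core that GATA factors bind, or their reverse complements.
Mrc1: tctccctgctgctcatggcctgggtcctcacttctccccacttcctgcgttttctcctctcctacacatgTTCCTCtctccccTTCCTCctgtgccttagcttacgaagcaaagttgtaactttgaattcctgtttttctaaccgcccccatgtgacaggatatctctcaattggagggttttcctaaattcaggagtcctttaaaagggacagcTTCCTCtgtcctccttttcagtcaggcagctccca
Ctss: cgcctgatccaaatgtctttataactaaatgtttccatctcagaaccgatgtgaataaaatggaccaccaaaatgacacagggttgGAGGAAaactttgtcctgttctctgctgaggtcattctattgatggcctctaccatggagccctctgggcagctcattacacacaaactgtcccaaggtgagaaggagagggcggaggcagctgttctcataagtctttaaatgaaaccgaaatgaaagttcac
C1qb: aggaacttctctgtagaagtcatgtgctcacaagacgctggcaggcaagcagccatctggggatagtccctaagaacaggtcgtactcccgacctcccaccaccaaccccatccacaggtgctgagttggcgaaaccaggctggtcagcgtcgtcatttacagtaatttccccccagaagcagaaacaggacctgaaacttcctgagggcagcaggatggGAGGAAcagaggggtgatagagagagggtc
Pf4: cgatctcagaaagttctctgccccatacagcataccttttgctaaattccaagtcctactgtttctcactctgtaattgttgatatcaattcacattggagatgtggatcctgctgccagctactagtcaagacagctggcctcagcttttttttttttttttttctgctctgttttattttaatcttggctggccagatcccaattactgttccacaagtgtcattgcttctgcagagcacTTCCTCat
Cpa3: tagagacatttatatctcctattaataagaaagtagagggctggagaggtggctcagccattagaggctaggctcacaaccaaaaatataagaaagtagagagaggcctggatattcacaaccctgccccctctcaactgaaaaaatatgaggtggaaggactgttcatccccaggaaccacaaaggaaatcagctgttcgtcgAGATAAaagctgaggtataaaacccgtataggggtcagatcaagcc
GAGGAA was found 3 times before *Mrc1* and 1 time each before *Ctss*, *C1qb* and *Pf4*, so among these windows it was present beside large and small folds and in both directions. A promoter was held for 25 of the 35 genes. On either strand, GAGGAA occurred before 13 of the 25 genes (52.0%), all of them among the 21 that are not mast cell genes, against 25.9% of the 27025 genes with a promoter. AGATAA occurred before *Cpa3* and *Ms4a2* among 4 mast cell genes and before 2 of the other 21, against 11.4% of all genes. A match describes these windows only.

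The folds of the 28 compared genes that are not mast cell genes were spread wider than counting error around their median of 1.51. The counting interval held this median for 20 genes, lay above it for *Cd74*, *Csf1r*, *Ctss*, *Fcer1g*, *Fcgr3*, *Laptm5* and *Mrc1*, and lay below it for *Pf4*. Counts of selected genes, *Laptm5* not among them, were also set against *Cd68* in the same library. These ratios restate the same counts without the scaling, so they are no separate support for the split. Per count of *Cd68*, *C1qa* had 0.236 counts in chondrocytes (interval 0.188 to 0.295) and 0.218 in dermal fibroblasts (interval 0.179 to 0.264), and *Lyz2* had 2.47 (interval 2.21 to 2.78) and 2.73 (interval 2.49 to 3.004). For *Mrc1* the values were 0.371 (interval 0.307 to 0.447) and 1.06 (interval 0.945 to 1.19), and for *Cd74* they were 0.125 (interval 0.0923 to 0.167) and 0.735 (interval 0.648 to 0.833). *Pf4* had 0.310 counts per count of *Cd68* in chondrocytes (interval 0.253 to 0.378) and 0.0567 in dermal fibroblasts (interval 0.0389 to 0.0801). The proportions among these genes thus differed between the libraries by more than counting error, as well as their summed level.

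**Figure D3:**
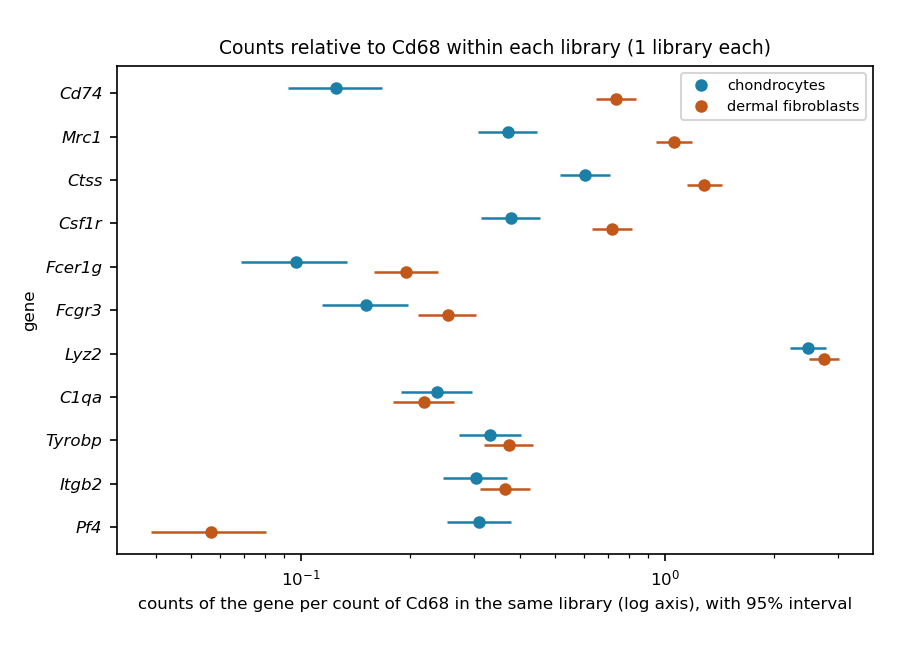
Counts of 11 genes per count of *Cd68* in the same library, on a log axis with 95% intervals, for the 1 library of each cell type. The intervals overlap for *Lyz2*, *C1qa*, *Tyrobp* and *Itgb2*, and are apart for *Cd74*, *Mrc1*, *Ctss*, *Csf1r*, *Fcer1g*, *Fcgr3* and *Pf4*.

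Levels per kilobase of exon placed the same gene first in both libraries. *Lyz2* stood at 44.4 CPM per kilobase in chondrocytes and 67.8 in dermal fibroblasts. In chondrocytes *Cd68* (18.8), *Tyrobp* (13.8), *Pf4* (12.5) and *Ctss* (10.5) followed, and in dermal fibroblasts *Ctss* (30.8), *Cd68* (25.9), *Tyrobp* (21.6) and *Cd74* (17.0). On this scale *Pf4* was the 4th of 34 genes with a length in chondrocytes and the 17th in dermal fibroblasts, and *Cd74* was the 14th and the 5th.

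Further macrophage genes, which are not among the 35, also lay mostly on the fibroblast side. Of 26 compared, 15 were more than 2-fold higher in the fibroblast library, against 16.2% of all genes. On the chondrocyte side 2 were, against 12% of all genes, namely *Cbr2* and *Csf3r* (13 and 1 counts). *Lyve1* (3 and 83 counts) and *Folr2* (60 and 152 counts), which resident macrophages in several tissues express, were on the dermal fibroblast side. Whether the reads of either gene came from macrophages or from other cells was not tested. *Mpeg1*, a pore-forming protein of phagocytes (381 and 554 counts), and *Msr1*, a scavenger receptor (290 and 467 counts), were within 2-fold, at 1.42 and 1.57. *Cbr2*, a carbonyl reductase, had 269 reads in the chondrocyte library against 67 in the fibroblast library and was 4.12-fold higher in chondrocytes (interval 3.14 to 5.47), close to the fold of *Pf4*. The most abundant genes of the list, *Gpnmb*, *Lgals3* and *Apoe*, are also made by cells outside the myeloid lineage, with 4208 and 16002, 6632 and 7446, and 602 and 6640 counts. *Timd4* was at 0 in both libraries.

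Among signalling and oxidase genes of blood cells, 10 of 22 compared were more than 2-fold higher in the fibroblast library, against 16.2% of all genes. Their median log2 fold was 0.81. *Cyba*, the partner of the *Cybb* product, had 329 and 986 counts (2.92-fold), and *Arhgdib* had 951 and 1983. *Runx1*, which skeletal progenitors also express, had 1817 and 1289 counts.

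**Figure D4:**
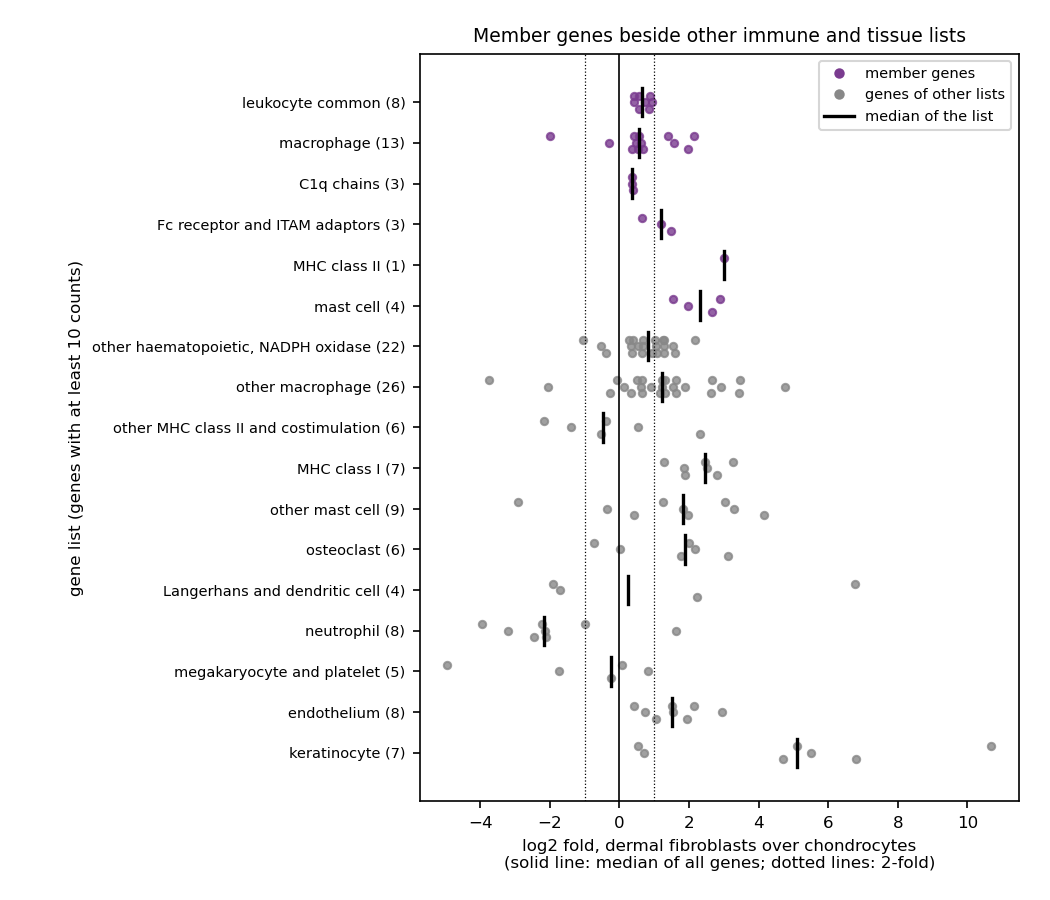
Log2 fold of every compared gene in the member groups (purple) and in other lists (grey), with the median of each list as a black bar and the number of genes compared in parentheses. The member groups lie to the right of 0 except for *Pf4* and *Aif1*, the 8 neutrophil genes lie mostly to the left, and the keratinocyte genes extend farthest to the right.

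Genes of related and neighbouring cells were read beside these results. The neutrophil list ran against the macrophage genes at low counts. Of 8 compared, 6 were more than 2-fold higher in the chondrocyte library, against 12% of all genes. Among them were *S100a8* (21 and 5 counts), *Ngp* (27 and 0 counts) and *Mpo* (15 and 1 counts). On the fibroblast side 1 was, *Mmp8* (26 and 82 counts), against 16.2% of all genes. *Cxcr2* had 29 and 15 counts and *S100a9* had 27 and 6.

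Of the T and NK cell genes, 8 of 11 were at 0 in both libraries (*Cd3e*, *Cd3d*, *Cd3g*, *Cd8a*, *Cd2*, *Ncr1*, *Gzma* and *Nkg7*). *Lck*, a SRC family kinase of T cells, had 24 and 43 counts, and *Cd4*, which some macrophages also express, had 5 and 21 and was 4.09-fold higher in the fibroblast library, with an interval that lay above 1 and reached from below 2 to 13.9. The B cell genes had at most 4 counts in either library, the value of *Cd79a* in chondrocytes. The 6 adult globin genes listed, which have near-identical copies, and *Slc4a1* were at 0 in both libraries, and *Alas2* had 9 and 3 counts. In the Langerhans and dendritic cell list, *Cd207*, which defines Langerhans cells of the epidermis, was at 0 in both libraries, as were *Flt3* and *Cd209a*. Of the 4 genes compared there, *Itgax*, an integrin chain of dendritic cells and macrophages, had 45 and 215 counts (4.65-fold, interval 3.36 to 6.57) and *Epcam*, which keratinocytes also express, had 1 and 112. *Zbtb46* (117 and 32 counts) and *Batf3* (19 and 6 counts) were more than 2-fold higher in the chondrocyte library. The 8 keratinocyte genes summed to 8.98 and 255 CPM, with *Krt14* at 17 and 1939 counts.

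Osteoclasts share the myeloid origin of macrophages. Of the 6 osteoclast genes compared, 4 were more than 2-fold higher in the fibroblast library, against 16.2% of all genes. *Acp5*, their acid phosphatase, had 59 and 61 counts and *Calcr* was at 0 in both libraries, while *Ctsk*, which fibroblasts also make, had 750 and 6644 and *Mmp9* had 101 and 468. *Atp6v0d2*, a proton pump subunit, had 45 and 185 counts, *Tnfrsf11a*, the RANKL receptor, had 29 and 101, and *Nfatc1* had 788 and 493. The 8 endothelial genes summed to 16.8 and 49.0 CPM, a 2.91-fold difference (interval 2.55 to 3.32). Of them 6 were more than 2-fold higher in the fibroblast library, against 16.2% of all genes. *Kdr* (70 and 276 counts) and *Cdh5* (68 and 198 counts) were among these, while *Pecam1* (70 and 120 counts) was within 2-fold. The part of these other cell types in the folds of the 35 genes was not tested.

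Growth factors for these cells were read in both libraries. *Csf1*, the main ligand of the *Csf1r* product, had 8470 reads in the chondrocyte library against 11903 in the fibroblast library, a 1.37-fold difference (interval 1.33 to 1.41), and *Il34*, its other ligand, had 85 and 74. *Kitl*, the ligand of the *Kit* product, had 661 and 1171 counts (1.72-fold), and *Il33*, the ligand of the *Il1rl1* product, had 76 and 230 (2.95-fold, interval 2.26 to 3.87). *Csf2* had 0 and 1 counts and *Il3* was at 0 in both libraries.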

How the data were processed

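RNA-Seq was analysed for 1 library of primary chondrocytes and 1 library of primary dermal fibroblasts. Per the labels and the study's methods, the authors sequenced stranded mRNA libraries as 75 bp single-end reads, called bases with CASAVA 1.8.2, mapped them to mm10 with TopHat2 2.0.13, Bowtie2 2.2.3 and SAMtools 0.1.19, and deposited 1 whole-number count of reads for each gene symbol and library, without normalization. The counting program, annotation and strand setting are not given in the sources used here, so reads of overlapping genes may be shared. In 27 rows the symbol had become a date. These rows were kept and not named.

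The libraries were scaled by TMM factors (edgeR 4.0.16, R 4.3.3), because *Col2a1* alone took 7.70% of the chondrocyte counts. Genes with at least 10 summed counts, and more than 3 in either library, were compared. A count of 0 was set to 3 for a fold, and a fold over 2 was called. Folds, exact intervals and shares came from scipy 1.17.1, pandas 2.3.3 and numpy 2.4.6 under Python 3.11.15, and figures from matplotlib 3.10.9. The calculations were tested on simulated counts. As no molecular identifiers were used, reads are not independent molecules, and intervals cover counting error only. Exon lengths came from GENCODE vM1 (34 of 35 genes), gene positions and promoters from RefSeq GRCm38.p6. The alternatives were other scalings (DESeq2 1.42.0 among them), low-count treatments, filters and thresholds. All 35 members were named. For each other list, the rule was to name the 3 genes with the highest summed counts, those at 0 in both libraries and the defining genes. Not all of these are printed, and the other genes named were picked after their values were seen. Some genes of the other lists are not reported here by name. The members and lists were chosen with earlier results of these data known.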

Additional observations from a re-analysis of the deposited data

How the results depend on the processing

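No paired analysis was possible because there was only 1 library of each kind. Of the 32 genes compared among the 35, 11 were more than 2-fold higher in the fibroblast library, against 16.2% of all genes. Under the 5 other scalings 11 to 13 were, against 14.8% to 18.3% of all genes, with *Cd53* and *Laptm5* added by total counts. With counts under 10 set to 10 the number fell to 7 of 32, against 13.8% of all genes. It was 6 of 26 among genes with at least 100 summed counts, against 13.3%. A fold over 4 left 4 of 32, against 6.75%. The whole counting interval lay beyond 2-fold for 5 of 32, against 10.5%. These stricter settings remove genes by construction. *Pf4* stayed more than 2-fold higher in the chondrocyte library in each setting tried except a fold over 4, which left 0 genes. Relative to TMM, total counts moved all log2 folds by 0.14 and *Actb* by -0.12, and genes higher in dermal fibroblasts made up 57.6% of all calls with TMM, 64.0% with total counts and 52.0% with *Actb*. The summed level of the 35 genes was 1.97-fold higher in dermal fibroblasts with total counts and 1.65-fold with *Actb*. The class II median, which rested on *Cd74* alone, went from 3.02 to 1.96 when genes under 10 summed counts were admitted. Of 133 genes compared in the other lists, 67 were more than 2-fold higher in the fibroblast library, against 16.2% of all genes. In the chondrocyte library 25 were, against 12% of all genes. The first was 34 with a fold over 4, against 6.75% of all genes. The second was 12 with at least 100 summed counts, against 8.76%, and 16 by the interval, against 7%. Of 314 values of single members' folds, 307 lay inside the main value's own counting interval with the direction kept. With counts under 10 set to 10, *Cd163*, *Mcpt4* and *Cma1* were at that floor in both libraries and went to 0.974, the ratio of the scaling factors, and *Cpa3* went to 1.27. Depth limits the 5 mast cell genes, *H2-Aa*, *H2-Ab1*, *Aif1* and *Cd163* among the 35, which had at most 23 counts in either library.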
